A study of Mus spretus with 19 samples.

Results

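The 40 genes described here run the cell division cycle and copy DNA, and their messenger RNA was measured in livers of wild Algerian mice (Mus spretus). They were listed by name, and the list was drawn up with earlier results of these data known. A probe belonged to the set when the array's design file gave it 1 of the 40 symbols. Of several probes for a gene the brightest measured one was used. All 40 symbols were found among the 27845 gene names of the array, and 34 of them passed the filter on dim probes, beside 16346 genes in all.

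Every mouse was male, and the 5 groups differ by the place of capture. SOL is the Santa Olalla lagoon, labelled unpolluted. PS is the phosphogypsum stacks, and DR1, DR4 and DR6 are stations on the Domingo Rubio stream at its lower, medium and upper course in that order, all labelled polluted. Liver RNA of 9 mice was combined into 1 pool per site, and each pool was labelled and hybridized 4 times, with 3 arrays used for DR6. The arrays of a site are therefore repeats of 1 pool: the array tests set a difference against technical spread and hold nothing on the spread between mice. Each site was also run on 1 slide and in 1 scan of its own, so site and slide cannot be told apart. In pooled tissue, fewer cells of a type and less RNA per cell cannot be told apart either.

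A cell commits to division when cyclin D and its kinase partner Cdk4 release the E2F transcription factors. Origins of replication are then licensed by loading the Mcm2 to Mcm7 helicase ring, with Cdc6 as a loader, and DNA is copied behind Cdc45 and the sliding clamp Pcna from deoxynucleotides made by ribonucleotide reductase, thymidylate synthase and thymidine kinase. Cyclins A and B with the Polo and Aurora kinases then drive mitosis, and the Bub proteins delay chromosome separation until every chromosome is attached. Most hepatocytes of an adult liver rest outside this cycle and can re-enter it, so the messages of mitosis are rare in resting liver.

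Each gene is read by a probe of 60 bases, and the deposited files of the DR1 slide list the probe sequences. The first 30 bases, 5′ to 3′ and in lower case as no base is singled out, are shown for the genes on which the results below turn. For Mki67, Mlf1ip and Fanca both probes are shown, since the first 2 pairs moved the same way and the pair of Fanca did not. Positions are those of the mm8 mouse build in the array's design file, and whether Mus spretus carries the same bases was not tested.
Ccnb2: cctaggcactggactccgatcctgcgcttc
Cdca3: cttggacatcgttcttttaaaatgttttat
Birc5: gtgtggttatatgtgtttgtgctgataatt
Mki67, first probe: atactactgctactgcctgagtttaaggaa
Mki67, second probe: tgcttccagcaagaggtatgtatcacctga
Mlf1ip, first probe: ggtagtcttcaataaatctggcttaggtaa
Mlf1ip, second probe: ggcagcgtttaattgaagtccaggatgaac
Mcm5: tggaaatgtactttggtctgttggctcata
Ccnd1: tgttttgtgttaattacagcattgtgctaa
Fanca, first probe: tacactagaaaatagattaccaatctcctt
Fanca, second probe: aaactcctgagataccatcaaaatatgcat

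The probe of Ccnb2 lies at chr9:70207028-70207087 on the minus strand and that of Cdca3 at chr6:124798834-124798893 on the plus strand. Birc5 is read at chr11:117671735-117671794 on the plus strand and Ccnd1 at chr7:144739658-144739717 on the minus strand. The Mki67 probes lie at chr7:135528251-135528310 and chr7:135532672-135532731, both on the minus strand. The Mlf1ip probes span chr8:48077506-48077565 and chr8:48072691-48075065 on the plus strand, and the second range is wider than the probe. Mcm5 is read at chr8:78023523-78023583 on the plus strand. The Fanca probes lie at chr8:126154400-126154459 and, again over a wider range, chr8:126202532-126204196 on the minus strand. Exons and untranslated regions at these positions were not analysed here.

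A level below is the log2 of a probe's signal minus the log2 of the 75th percentile of that array, so a difference of 1 between levels is a 2-fold difference. Levels are compared between sites for the same probe, never between genes. Of the 40 genes, 22 were well above background on all 19 arrays. Between 26 and 30 were above background on the SOL arrays, 24 to 27 on PS, 30 to 35 on DR1, 28 to 31 on DR4 and 25 to 27 on DR6. The 6 that passed no site's filter were Ccne2, the second cyclin E; Cdc6; Cdc45l, the Cdc45 helicase cofactor; Cdca8, a partner of Aurora B; Top2a, the topoisomerase of dividing cells; and the spindle motor Kif11. Ccnb1, Bub1 and Bub1b passed through DR1 alone and Fanca through SOL alone, so these 4 had to differ between those sites and the rest.

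A gene is said to have risen or fallen when limma's adjusted p, Benjamini-Hochberg over all genes tested, was under 0.05 and the change was at least 2-fold. At DR1, 13 of the 40 genes rose and 3 fell against SOL, where 3.53% of all tested genes rose and 2.55% fell (6.08% together). At PS 1 rose and 5 fell, against 2.23% and 2.18% of all genes (4.42% together). At DR4 2 rose and 6 fell, against 5.43% and 5.1% (10.5% together), and at DR6 3 rose and 4 fell, against 4.67% and 2.28% (6.95% together). The median change over the tested members was -0.15 at PS, 0.26 at DR1, -0.28 at DR4 and -0.36 at DR6, while the median over all genes lay between -0.05 and 0.01. The 4 comparisons share the SOL arrays, so they are not independent of each other. The direction depended on the role: all 13 rises at DR1 were genes of G2 and mitosis, and all 3 falls were Mcm2, Mcm5 and Fanca.

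**Figure D1:**
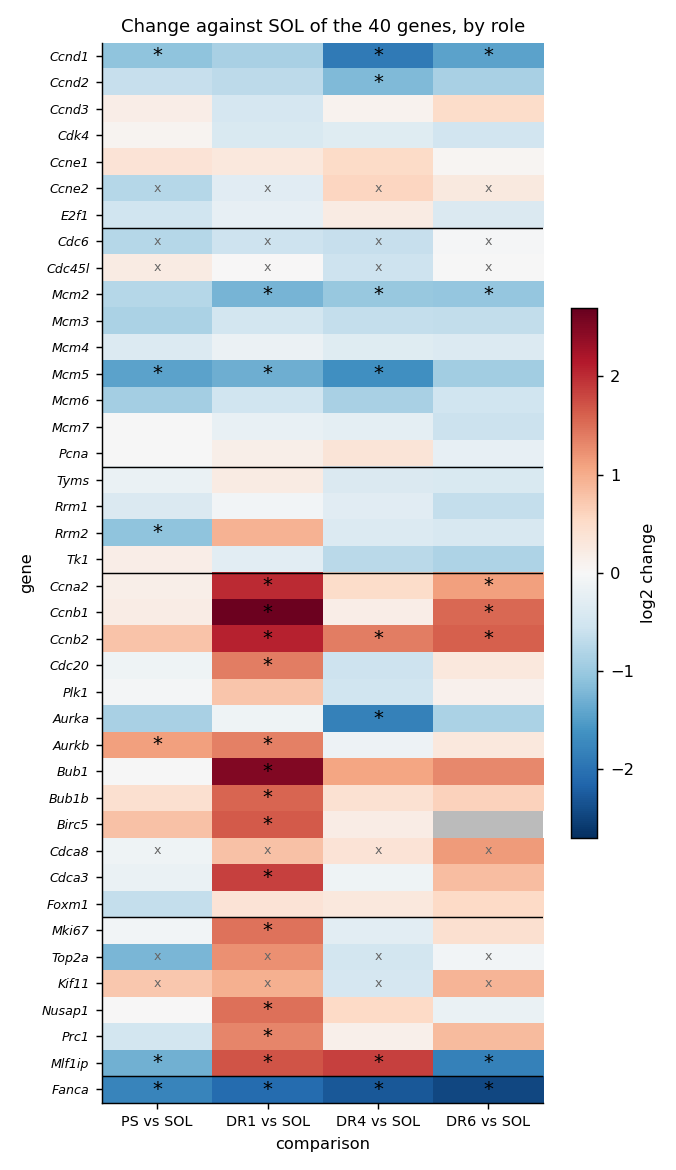
Log2 change of each of the 40 genes (rows, ordered by role, with lines between roles) against SOL at PS, DR1, DR4 and DR6 (columns); red is higher than SOL and blue lower, a star marks an adjusted p under 0.05 with at least a 2-fold change, x a gene that was not tested, and grey no value. The red block with stars in the DR1 column covers 13 mitotic genes, the Mcm changes all lie below 0, and Fanca is blue with a star at all 4.

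Most mitotic genes read highest at DR1. Of the 19 genes of G2, mitosis, chromosomes and spindle, 16 were tested, and 13 of these rose at DR1 and none fell, with a median change of 1.53. DR1 had the highest mean of the 5 sites for 14 of the 18 that have a value at every site, against 20.4% of all tested genes. The 14 include Ccnb1, Bub1 and Bub1b, which entered the tests through DR1 alone, and the untested Top2a and Kif11. That count is therefore a description, and Birc5 is left out of it for want of a DR6 value. The 13 that rose included the cyclins A2, B1 and B2 (Ccna2, Ccnb1, Ccnb2), the anaphase activator Cdc20, Aurora B (Aurkb) and the checkpoint kinases Bub1 and Bub1b. The rest were survivin (Birc5), Cdca3, the proliferation marker Mki67, the spindle proteins Nusap1 and Prc1, and the centromere protein Mlf1ip. Polo kinase Plk1 was 0.75 ± 0.073 (SE) higher with an adjusted p of 3.67e-07, which stays under 2-fold. Aurka, the Aurora kinase of spindle poles, gave -0.11 ± 0.11 (adjusted p = 0.439) and the mitotic transcription factor Foxm1 0.38 ± 0.33 (adjusted p = 0.361).

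Ccnb2, a B-type cyclin of mitosis, read -2.55, -1.50, -1.58 and -1.45 on the 4 SOL arrays and 0.24, 0.54, 0.30 and 0.12 on those of DR1. No array of one site reached the other, and the first SOL array stood about 1 doubling under its fellows. The change was 2.07 ± 0.18 (SE; adjusted p = 8.08e-08), a 4.21-fold rise. Cdca3, which helps to remove the mitotic inhibitor Wee1, read -1.40, -1.19, -1.27 and -1.47 at SOL and 0.76, 0.42, 0.47 and 0.40 at DR1. It rose 3.58-fold (1.84 ± 0.080, adjusted p = 1.95e-11), with both sites tight. Its second probe, above background on 3 of 4 DR1 arrays and 1 SOL array, read 0.50 higher at DR1.

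Mki67 encodes the Ki-67 protein, which coats mitotic chromosomes and marks cycling cells in histology. It read -2.21, -1.87, -1.85 and -1.80 at SOL and -0.47, -0.61, -0.45 and -0.36 at DR1. The rise was 1.46 ± 0.086 (2.75-fold, adjusted p = 1.04e-09), and its second probe differed by 1.50. Cdc20 read -1.20, -0.83, -0.94 and -1.39 at SOL and 0.27, 0.73, 0.10 and 0.04 at DR1, without overlap. Its rise was 2.60-fold (1.38 ± 0.17, adjusted p = 4.49e-06).

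Birc5, the survivin subunit of the complex that corrects chromosome attachment, read 0.31, 0.20, 0.17 and 0.02 at SOL. At DR1 it read 2.03, 1.41 and 2.08, and the spot of DR1 replicate 3 was an outlier by the extraction software and set missing. The rise was 3.17-fold (1.67 ± 0.19, adjusted p = 6.83e-05) over the 3 arrays left. The same spot was an outlier on 2 PS, 2 DR4 and all 3 DR6 arrays, so Birc5 has no value at DR6. With these spots kept, which was tried after seeing the data, DR6 read 1.85, 1.94 and 2.52, a change of 1.93 ± 0.39 against SOL (adjusted p = 0.000703), and DR1 changed by 1.70 (adjusted p = 0.000885).

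Ccna2, the cyclin of S phase and G2, was near background at SOL. There it read -3.61, -3.85, -3.38 and -3.42, with the first pair not well above background, and at DR1 -1.49, -1.41, -1.65 and -1.62. The rise was 4.06-fold (2.02 ± 0.11, adjusted p = 5.96e-10). Prc1, which bundles microtubules at the midzone, read -3.12, -2.69, -2.96 and -3.10 at SOL and -1.44, -1.79, -1.71 and -1.64 at DR1, a 2.50-fold rise (1.32 ± 0.17, adjusted p = 6.92e-06). Nusap1, a spindle-associated protein, rose by 1.48 ± 0.32 (adjusted p = 0.00115), but 1 SOL array at -2.44 lay above the lowest DR1 array at -2.50. The other 3 SOL arrays read between -4.08 and -4.02.

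**Figure D2:**
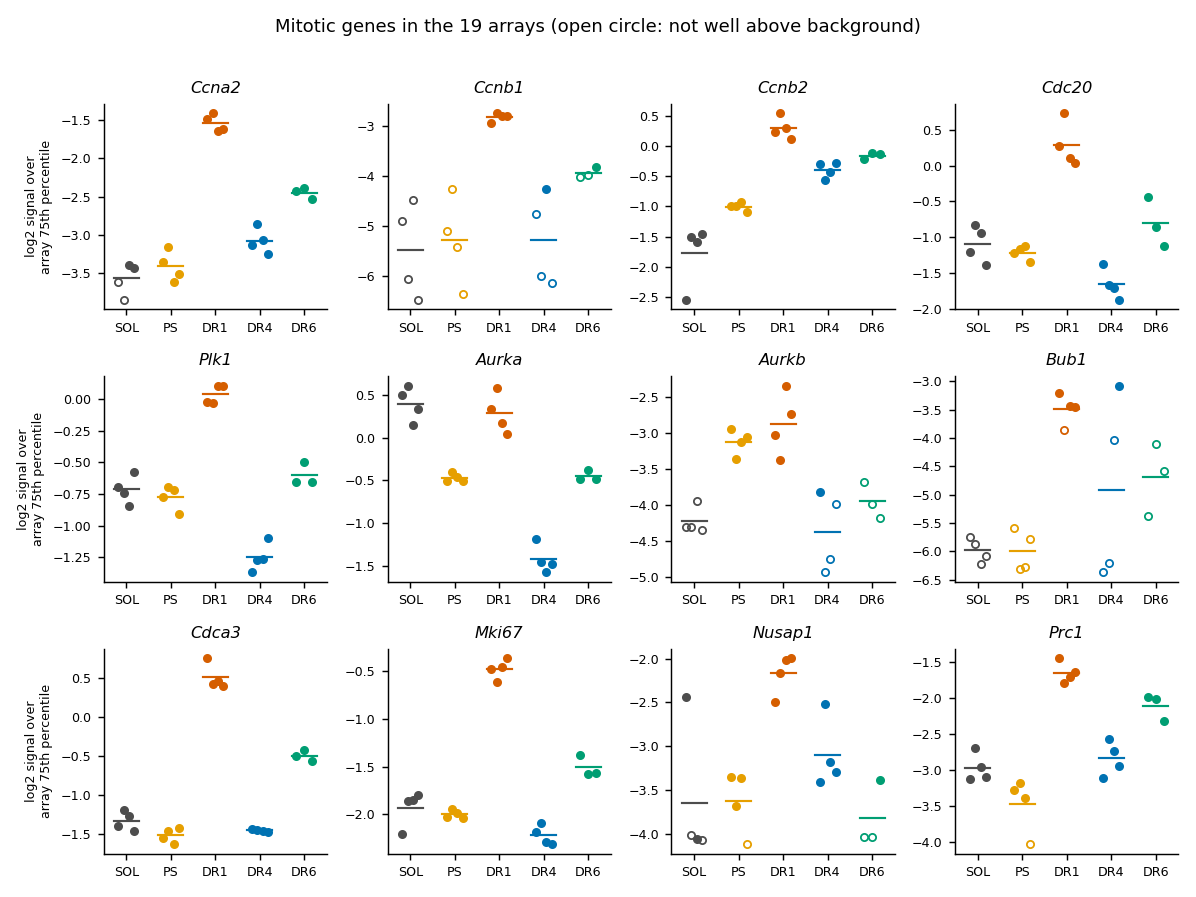
Level (log2 signal over the array's 75th percentile) of 12 mitotic genes on each of the 19 arrays, by site; each point is an array, bars are site means, and an open circle marks a spot not well above background. DR1 points lie above the SOL points for all of the 12 but Aurka and Nusap1; for Ccnb1, Aurkb and Bub1 the SOL points are open circles, so the size of those differences is only a bound.

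For 4 of the 13 the SOL level was not measurable. Where no array of the lower site is well above background, a fold is given as a bound: the brighter site's mean against, per array, the lowest signal that still counted as well above background or the dim probe's own if higher. By this bound Ccnb1, the main mitotic cyclin, was at least 2.55-fold higher at DR1 than at SOL, and Aurkb at least 2.26-fold. Bub1, the kinase that recruits the checkpoint to kinetochores, was at least 1.61-fold higher and its relative Bub1b at least 1.08-fold. The fitted change of Aurkb was 1.35 ± 0.24 (adjusted p = 0.000201). Ccnb1, Bub1 and Bub1b entered the tests through DR1 alone, so their values are a description, and 10 of the 13 rises are of genes that did not. Among these 10, Mlf1ip entered through DR1 and DR4 alone, and Aurkb through PS and DR1 alone. Ccnb1 read -2.95, -2.75, -2.80 and -2.80 at DR1 and -4.91, -6.06, -4.47 and -6.48 at SOL. Its second probe differed by 2.38, and a further probe, never above background, by 1.89.

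The rises included genes that were measured everywhere. Of the 7 mitotic members above background on all 19 arrays, 5 rose at DR1 (Ccnb2, Cdc20, Birc5, Cdca3 and Mki67) and 2 did not pass 2-fold (Plk1 and Aurka). Among all 13468 genes above background on every array, 2.35% rose there. The calls depended on how background was handled: with normexp correction and an offset of 50 in place of the scanner's own subtraction, 3 of the 13 rises remained, Birc5 (1.46), Cdca3 (1.18) and Ccnb2 (1.13). The same setting gave 0.68 for Mki67 (adjusted p = 0.0788), and -0.10 for Bub1b, and the value of Bub1 was also below 0.

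DR6, the upper course, held part of the pattern. Ccnb2 rose 3.06-fold against SOL (1.61 ± 0.19, adjusted p = 4.07e-06), with -0.22, -0.12 and -0.14 on its 3 arrays. Ccna2 rose 2.17-fold (1.12 ± 0.12, adjusted p = 1.88e-06), with -2.43, -2.38 and -2.53. Both sat between SOL and DR1 without overlapping either. Ccnb1 was called as well (fitted change 1.54 ± 0.52, adjusted p = 0.0255), but the bound is at least 1.18-fold, 1 of 3 DR6 arrays was above background, and the adjusted p was between 0.0529 and 0.0784 without SOL replicate 2, SOL replicate 4 or any single DR6 array. Prc1 (0.86 ± 0.18), Cdca3 (0.83 ± 0.086) and Mki67 (0.42 ± 0.093) passed the adjusted p at DR6 and not the 2-fold limit.

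At DR4, the medium course, the mitotic genes went in different directions. Ccnb2 rose 2.61-fold (1.38 ± 0.18, adjusted p = 4.72e-06), with -0.29, -0.56, -0.43 and -0.28 on the 4 arrays. Aurka fell 3.53-fold (-1.82 ± 0.11, adjusted p = 8.00e-10): it read 0.50, 0.61, 0.15 and 0.33 at SOL and -1.19, -1.45, -1.58 and -1.48 at DR4. Its level at PS and DR6 was also lower than at SOL, by -0.87 ± 0.11 and -0.84 ± 0.12, under the 2-fold limit, while DR1 read close to SOL. Plk1 (-0.54 ± 0.073), Cdc20 (-0.57 ± 0.17) and Mki67 (-0.29 ± 0.086) passed the adjusted p toward lower values at DR4. Ccnb2 thus stood apart from these 4 genes there.

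At PS the mitotic genes lay near the background: with the adjusted p alone, 3 of the 16 tested were higher and 3 lower. By the same rule 2688 of all 16346 genes were higher and 2676 lower. The median change of the mitotic genes was -0.03. Mlf1ip, described below, fell, and Aurka was lower without reaching 2-fold. Aurkb rose, by at least 1.91-fold (fitted change 1.10 ± 0.24, adjusted p = 0.00189), and all 4 PS arrays were above background where none of SOL was. Ccnb2 passed the adjusted p (0.77 ± 0.18, adjusted p = 0.00301) without reaching 2-fold. Mki67 differed by -0.07 ± 0.086 and Cdc20 by -0.12 ± 0.17.

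Compared with the other polluted sites, DR1 was again the higher one for the members called. Against PS 13 members rose at DR1, 12 of them mitotic, and none fell, where 3.72% and 2.64% of all genes did (6.36% together). Against DR4 14 rose, 12 of them mitotic, and none fell, where 3.05% and 2.1% of all genes did (5.15% together). Against DR6 7 rose, 6 of them mitotic, and none fell, where 3.26% and 4.24% of all genes did (7.5% together). Calls on bounds numbered 6 against PS, 1 against DR4 and 2 against DR6. Any calls of Ccnb1, Bub1 and Bub1b here are a description, since these genes entered the tests through DR1 alone. Of the 7 mitotic members above background on all arrays, 4 rose against PS, 6 against DR4 and 3 against DR6, and none fell. Among all such genes 2.55%, 2.18% and 2.16% rose. Birc5, 1 of the 7, has no value at DR6, and its call against DR4 rests on 2 DR4 arrays. With its outlier spots kept, DR1 differed by 0.79 from DR4 (adjusted p = 0.0843) and by -0.23 from DR6 (adjusted p = 0.645), neither called. Over all members, the 7 calls against DR6 became 4 without DR6 replicate 3. Cdc20 (1.95 ± 0.17), Cdca3 (1.97 ± 0.080) and Mki67 (1.75 ± 0.086) were all higher at DR1 than at DR4, and by 1.09 ± 0.18, 1.01 ± 0.086 and 1.04 ± 0.093 than at DR6. Ccnb2 did not pass 2-fold against DR6 (0.46 ± 0.19, adjusted p = 0.0558) or DR4 (0.69 ± 0.18, adjusted p = 0.00441).

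The remaining pairs held few calls. Against PS, DR6 had 4 members higher and 1 lower, where 4.79% and 2.51% of all genes were (7.3% together): Prc1 (1.37 ± 0.18) and Cdca3 (1.02 ± 0.086) rose on measured levels, Foxm1 and Ccnb1 on bounds of at least 1.64-fold and 1.31-fold, and Tk1 fell (-1.02 ± 0.083). That count of 5 was 2 without PS replicate 3 and 3 without DR6 replicate 1 or 2. Against PS, DR4 had 1 higher and 1 lower, Mlf1ip and Aurkb, where 4.64% and 4.32% of all genes were (8.96% together), and 5 calls without DR4 replicate 1. Against DR6, DR4 had 1 higher and 1 lower, Mlf1ip and Ccnb1, where 2.39% and 3.78% of all genes were (6.16% together). Ccnb1 at both sites was near background, with 1 array above it at each, and the count was 1 without DR4 replicate 2, DR4 replicate 4, DR6 replicate 1 or DR6 replicate 2.

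Mlf1ip, the kinetochore protein also called CENP-U, had a pattern of its own. It read -2.16, -2.09, -2.42 and -2.35 at DR1 and -2.22, -2.03, -2.21 and -1.96 at DR4, all above background. At SOL it read -4.13, -4.14, -3.69 and -3.87, with 1 array above background, and at PS -4.96, -6.21, -4.94 and -4.91 and at DR6 -5.91, -5.61 and -5.85, with none. DR1 and DR4 were thus high, PS and DR6 at background, and SOL at its edge.

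Mlf1ip rose by 1.70 ± 0.22 at DR1 (adjusted p = 8.58e-06) and by 1.85 ± 0.22 at DR4 (adjusted p = 2.01e-06) against SOL. It passed the filter at DR1 and DR4 alone, so these rises are a description and no support for a difference. It was called lower at PS and DR6, where the bounds are at least 1.29-fold and at least 1.12-fold. Between stream sites DR4 was at least 4.04-fold above DR6, and DR1 at least 3.64-fold. Its second probe gave -1.06, 1.10, 1.40 and -0.77 against SOL at PS, DR1, DR4 and DR6, the same directions at smaller size. The call at PS was lost without PS replicate 2 (-0.98), and under normexp correction the changes were 0.12 at DR1 and 0.51 at DR4, neither called.

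**Figure D3:**
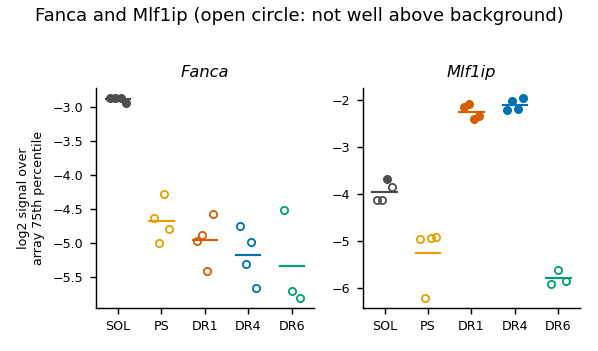
Level (log2 signal over the array's 75th percentile) of Fanca and Mlf1ip on each of the 19 arrays, by site; points are arrays, bars site means, and open circles spots not well above background. Fanca is filled at SOL alone, with 4 points between -2.95 and -2.86, while Mlf1ip is filled on all arrays of DR1 and DR4 and on 1 of SOL.

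The Mcm2 to Mcm7 helicase was lower at the polluted sites in most of its subunits. SOL had the highest mean for 6 of 6 subunits, against 19.5% of all tested genes. With the adjusted p alone and no fold limit, 5 of 6 were lower at PS, 5 at DR1, 6 at DR4 and 6 at DR6, where 16.4%, 23.2%, 31% and 23.4% of all genes were. The 2-fold limit left Mcm5 at PS, Mcm2 and Mcm5 at DR1, Mcm2 and Mcm5 at DR4, and Mcm2 at DR6. The median change of the 6 was -0.80, -0.52, -0.76 and -0.62 in that order of sites. Sizes thus differed between subunits of 1 ring.

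Mcm5 read -0.76, -1.07, -0.99 and -1.12 at SOL. It read -2.40, -2.48, -2.25 and -2.57 at PS, -2.21, -2.53, -2.27 and -2.23 at DR1, -2.56, -2.63, -2.58 and -2.79 at DR4, and -1.86, -1.86 and -2.03 at DR6. Every polluted array lay below every SOL array. The fall was 2.71-fold at PS (-1.44 ± 0.095, adjusted p = 4.19e-09), 2.50-fold at DR1 (-1.32 ± 0.095, adjusted p = 1.04e-08) and 3.15-fold at DR4 (-1.65 ± 0.095, adjusted p = 2.52e-10). DR6 gave -0.93 ± 0.10 (adjusted p = 1.68e-06), just under the limit.

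Mcm2 read -0.63, -1.04, -0.80 and -0.79 at SOL, and between -1.74 and -1.44 at PS, -2.35 and -1.76 at DR1, -1.90 and -1.78 at DR4, and -1.91 and -1.76 at DR6. It fell 2.38-fold at DR1 (-1.25 ± 0.12, adjusted p = 2.19e-07), 2.03-fold at DR4 (-1.02 ± 0.12) and 2.05-fold at DR6 (-1.03 ± 0.13), and PS gave -0.76 ± 0.12. The calls at DR4 and DR6 sit on the limit: without SOL replicate 1 they were -0.96 and -0.97. Under normexp correction Mcm2 and Mcm5 kept their signs and no call at 2-fold, with Mcm5 at -0.59, -0.70 and -0.47 for PS, DR1 and DR4.

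The other subunits differed less on the probes used. Mcm6 was lower by -0.91 ± 0.067 at PS and -0.88 ± 0.067 at DR4, and Mcm3 by -0.85 ± 0.11 at PS, where its second probe gave -0.94. At DR1 Mcm3 gave -0.50 and its second probe -1.07. That second probe gave -0.77 at DR4 and -0.74 at DR6. Mcm4 lay between -0.38 and -0.15 and Mcm7 between -0.58 at DR6 and -0.01 at PS (adjusted p = 0.906). The clamp Pcna ranged from -0.23 ± 0.12 at DR6 to 0.35 ± 0.11 at DR4 (adjusted p = 0.0111), so it did not share the helicase pattern. Cdc6 was at background on all 19 arrays and Cdc45l on 16.

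**Figure D4:**
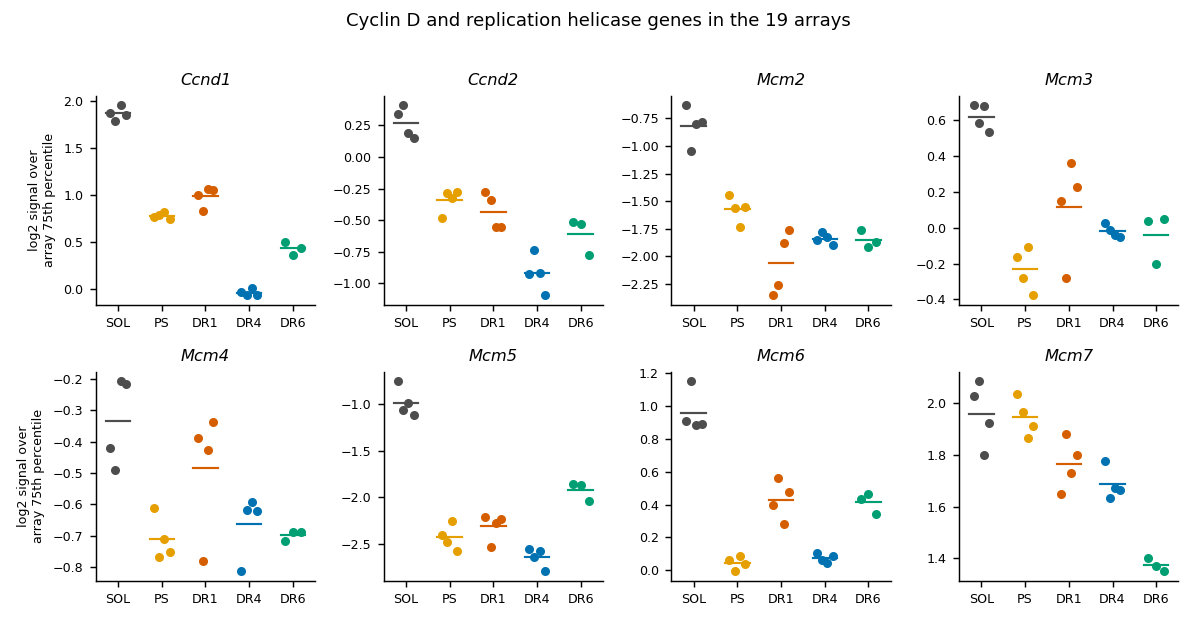
Level (log2 signal over the array's 75th percentile) of Ccnd1, Ccnd2 and the 6 helicase subunits Mcm2 to Mcm7 on each of the 19 arrays, by site; points are arrays, bars site means, and all spots were well above background. SOL lies highest for Ccnd1, Ccnd2, Mcm2, Mcm3, Mcm5 and Mcm6 without overlap, and overlaps with other sites for Mcm4 and Mcm7.

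Of the cyclins that open the cycle, Ccnd1 and Ccnd2 were highest at SOL, while Ccnd3 was highest at DR6 and Ccne1 at DR4. Ccnd1, cyclin D1, read 1.87, 1.79, 1.95 and 1.85 at SOL and 0.77, 0.79, 0.81 and 0.74 at PS. It read 0.99, 0.83, 1.06 and 1.04 at DR1, -0.04, -0.07, 0.01 and -0.07 at DR4, and 0.49, 0.36 and 0.43 at DR6. The order SOL, DR1, PS, DR6, DR4 had no overlap between neighbours.

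Ccnd1 fell 2.13-fold at PS (-1.09 ± 0.056, adjusted p = 1.83e-10), 3.75-fold at DR4 (-1.91 ± 0.056, adjusted p = 3.85e-14) and 2.71-fold at DR6 (-1.44 ± 0.061, adjusted p = 1.30e-11). DR1 gave -0.88 ± 0.056 (adjusted p = 2.49e-09). Under normexp correction the calls at DR4 (-1.53) and DR6 (-1.20) remained and PS gave -0.94. Ccnd2, cyclin D2, fell 2.28-fold at DR4 (-1.19 ± 0.093, adjusted p = 1.19e-08) and lay between -0.88 and -0.62 at the other 3 sites. Its other probes gave -0.53 and -1.24 at DR4, and the mean of the 3 probes -0.99. These other probes gave -0.01 and -0.74 at DR1, -0.29 and -0.58 at PS, and -0.60 and -0.62 at DR6. The size at DR1 thus depended on the probe.

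No other tested gene of entry into S phase was called against SOL. Cyclin D3, Ccnd3, ranged from -0.46 ± 0.072 at DR1 to 0.49 ± 0.078 at DR6, and Cdk4 from -0.51 ± 0.11 at DR6 to 0.08 ± 0.098 at PS. Cyclin E1, Ccne1, lay 0.05 to 0.51 above SOL, with an adjusted p of 9.19e-05 at DR4 and 0.672 at DR6. The transcription factor E2f1, above background on 9 arrays, passed no test, with adjusted p from 0.339 to 0.687. Of the 20 genes of G1, replication and nucleotide supply, 17 were tested: none rose at any polluted site against SOL, and 3, 2, 4 and 2 fell at PS, DR1, DR4 and DR6, where 2.18%, 2.55%, 5.1% and 2.28% of all genes fell.

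Ribonucleotide reductase makes deoxynucleotides with a large subunit, Rrm1, that is kept through the cycle and a small one, Rrm2, that is made in S phase. Rrm2 read -3.11, -3.13, -3.23 and -3.17 at SOL and -2.06, -2.53, -2.14 and -2.16 at DR1, a change of 0.94 ± 0.18 (adjusted p = 0.000446), and 1.04 without DR1 replicate 2. At PS it read -3.99, -4.44, -3.91 and -4.64, none above background, and fell by at least 1.95-fold (adjusted p = 0.000193). DR1 stood apart from the other polluted sites: at least 3.72-fold above PS, 2.58-fold above DR6 and 2.46-fold above DR4. Rrm1 lay between -0.65 ± 0.070 at DR6 and -0.06 ± 0.065 at DR1.

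Thymidine kinase, Tk1, was lower at DR4 (-0.73 ± 0.077) and DR6 (-0.83 ± 0.083, adjusted p = 5.59e-07) than at SOL and did not reach 2-fold. Thymidylate synthase, Tyms, ranged from -0.41 ± 0.10 at DR6 to 0.22 ± 0.095 at DR1. Rrm2 was the gene of nucleotide supply whose DR1 value sided with the mitotic genes.

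Fanca, a scaffold of the Fanconi complex that repairs cross-linked DNA, was measured at SOL and nowhere else. Its SOL arrays read -2.87, -2.87, -2.86 and -2.95, and every other array lay between -5.81 and -4.28, below background. The differences were at least 2.67-fold at PS, 2.76-fold at DR1, 3.15-fold at DR4 and 2.35-fold at DR6. Since the gene entered the tests through its SOL level alone, these are a description, and its calls are no support for a difference. The second Fanca probe was above background on no array and differed from SOL by -0.27 to 0.12. The probes thus disagree, and normexp correction gave changes of -0.53 to -0.06, none called.

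Genes of the same processes outside the 40 were counted from lists by role. Of 80 other mitotic genes on the array, 58 were tested: at DR1 22 rose and none fell, with a median of 0.76, beside 0.01 for all genes. At PS 0 rose and 3 fell, at DR4 2 rose and 1 fell, and at DR6 4 rose and 2 fell. Of all genes 3.53% rose at DR1, 2.23% at PS, 5.43% at DR4 and 4.67% at DR6, and 2.55%, 2.18%, 5.1% and 2.28% fell. The counts of rises at DR4 and DR6 thus lie near the background. Cenpf, a kinetochore protein, rose by 2.56 ± 0.14 at DR1 (adjusted p = 4.21e-10) and 1.10 ± 0.15 at DR6. Ckap2 and Spag5, both spindle proteins, rose at DR1 by at least 2.84-fold and at least 2.88-fold. At DR4 cyclin F, Ccnf, rose by 1.82 ± 0.18 and the kinetochore gene Spbc24 fell by 1.08 on the log2 scale. At DR6 the condensin subunit Smc2 fell by 1.17 on the log2 scale. With normexp correction none of the 22 calls at DR1 was left, and 3 with normexp and no offset. Genes of the list that entered through DR1 alone had to differ there, and how many of the 22 did so was not counted. Above background were 51 to 61 of 78 on the DR1 arrays and 38 to 47 on those of SOL.

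Of 48 other replication genes, 44 were tested: 1 rose and 4 fell at PS, 2 and 1 at DR1, 2 and 5 at DR4, and 1 and 1 at DR6. Of all genes 2.23% rose and 2.18% fell at PS, 3.53% and 2.55% at DR1, 5.43% and 5.1% at DR4, and 4.67% and 2.28% at DR6, so several of these counts lie near the background. With normexp correction 0, 1, 1 and 0 genes of the list were called. Geminin, Gmnn, which keeps origins from being licensed again, rose by 1.75 ± 0.072 at DR1, 2.06 ± 0.072 at DR4 and 1.17 ± 0.078 at DR6. Timeless, a fork protection protein, fell at DR4 by 1.60 on the log2 scale. Of the polymerase subunits, Pold1 fell at DR1 (-1.05 ± 0.082), Pold2 at DR4 (-1.06 ± 0.24) and Pole2 at DR4 (-1.03 ± 0.16) and DR6 (-1.18 ± 0.17). Pold2 was just under the 2-fold limit at DR1.

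Of 36 genes that hold back the cycle, 30 were tested, and most were not called at any site. At PS 0 rose, at DR1 6, at DR4 11 and at DR6 8, where 2.23%, 3.53%, 5.43% and 4.67% of all genes rose, and none fell at any of the 4. With normexp correction the rises numbered 0, 5, 7 and 6. Sestrin 1, Sesn1, and Trp53inp1, both p53 targets, rose by 2.51 ± 0.076 and 2.18 ± 0.078 at DR1, 3.24 ± 0.076 and 2.84 ± 0.078 at DR4, and 2.43 ± 0.082 and 2.57 ± 0.084 at DR6. The antiproliferative genes Btg3 at DR4 (2.40 ± 0.10) and Btg2 at DR6 (3.65 ± 0.073) rose as well.

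Of 40 genes of growth signals, 38 were tested: 8 rose at DR1, 6 at DR4, 7 at DR6 and none at PS, and 2 fell at DR4 and 1 at PS, beside the same shares of all genes (3.53%, 5.43%, 4.67% and 2.23% higher, 5.1% lower at DR4 and 2.18% at PS). With normexp correction 6, 3, 4 and 0 rose and none fell. The EGF receptor ligand betacellulin, Btc, rose by 3.34 ± 0.10 at DR1, 5.41 ± 0.10 at DR4 and 4.71 ± 0.11 at DR6. Myc rose by 1.64 ± 0.055, 2.47 ± 0.055 and 2.29 ± 0.059 at the same sites, and Fos by 2.55 ± 0.12, 1.87 ± 0.12 and 2.02 ± 0.13. Btc, Myc, Fos, Sesn1 and Trp53inp1 thus rose at all 3 stream sites.

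**Figure D5:**
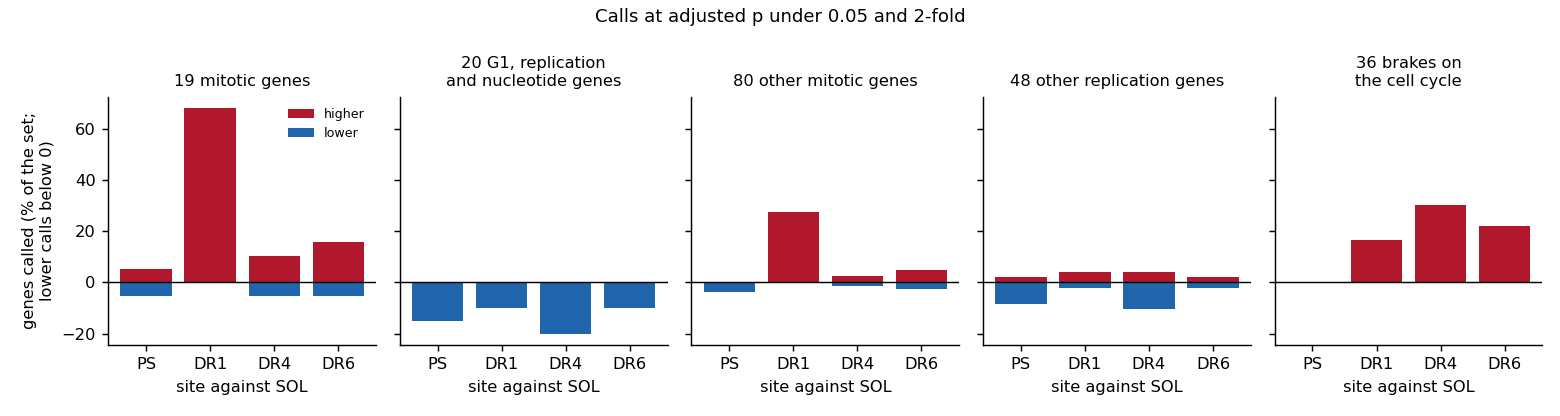
Share of each gene set that was called higher (red, above 0) or lower (blue, below 0) than SOL at each polluted site, in percent of all genes of the set, with an adjusted p under 0.05 and at least 2-fold. The tallest red bar is that of the 19 mitotic genes at DR1; the 80 other mitotic genes also peak at DR1, and the 36 brakes peak at DR4.

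Several other values moved with the sites, and their part in the results was not tested. The 75th percentile of signal was 186.1 to 285.2 on the DR1 arrays, 165.3 to 204.5 at DR4 and 159.2 to 181.5 at PS, and lowest at SOL (99.5 to 167.1) and DR6 (129.3 to 143.2). For DR1 an earlier version of the array's design file had been used, so genes were matched by probe. The share of spots well above background was alike, from 52.0% to 61.5% over all arrays. All 16 hepatocyte markers with a value on every array were above background on each, and of the 17 tested none was called at a stream site and 2 fell at PS.

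Markers of other cells were summed as multiples of the array's 75th percentile. Over all genes 2.23% rose at PS, 3.53% at DR1, 5.43% at DR4 and 4.67% at DR6. In the same order 2.18%, 2.55%, 5.1% and 2.28% fell. These shares stand beside the calls here and in the next paragraph. Tested were 15 of 24 erythroid, 11 of 16 B and plasma cell, 11 of 17 neutrophil and myeloid precursor and 20 of 25 T and NK cell genes. Erythroid genes summed to 758.8 to 785.4 at SOL, 760.2 to 864 at PS, 382.5 to 419.9 at DR1, 308.7 to 310.5 at DR4 and 362.6 to 378.5 at DR6, with 1 of 24 lower at PS, 2 at DR1, 9 at DR4 and 6 at DR6. B and plasma cell genes ran from 4.49 to 5.58 at SOL, 10.2 to 11.1 at PS, 7.33 to 9.52 at DR1, 5.02 to 5.62 at DR4 and 5.33 to 6.15 at DR6. Of 16, 4 were called higher at PS, 3 at DR1 and 2 at DR6, and 1 lower at DR4 and at DR6. Neutrophil and myeloid precursor genes ran from 7.93 to 8.80 at SOL and 11.4 to 14.5 at DR1, with 3 of 17 higher, from 11.4 to 12.7 at PS, with none, from 9.73 to 10.7 at DR4, with 1, and from 7.63 to 8.32 at DR6, with none. T and NK cell genes summed to 6.40 to 7.77 at SOL, 7.84 to 8.69 at DR1, with 1 of 25 higher and 1 lower, 10.6 to 11.1 at PS and 7.90 to 8.77 at DR4, with 1 higher each, and 12.6 to 13.4 at DR6, with 3 higher.

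Exocrine pancreas genes were present in all pools: they summed to 1566 to 1603 at SOL, 403.5 to 414.9 at PS, 894.9 to 951.8 at DR1, 201.8 to 216.6 at DR4 and 1965 to 2053 at DR6. They fell at PS and DR4 (19 of 19 each) and in 4 of 19 at DR1. Their sums were high at SOL and DR6 and low at PS and DR4. Macrophage genes summed to 230.5 to 267.7 at SOL, 227.3 to 230.3 at PS and 216.4 to 242.3 at DR1. The macrophage sums were lower at DR4 (134.9 to 149.5) and DR6 (127 to 137.4). Macrophage genes were called lower in 1 of 20 at PS and at DR1, 3 at DR4 and 2 at DR6. Stellate cell genes were called higher in 3 of 19 at DR1 and 2 at DR6 and lower in 2 at DR4, with sums of 168.7 to 190.5 at SOL and 152.6 to 174.1 at DR1. Endothelial genes had no call at any site, and cholangiocyte genes had 1 of 13 lower at PS and at DR1 and 1 higher at DR4.

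With the 5 pools as units, no member passed an adjusted p of 0.05 in limma. SOL is then a lone pool, assumed to vary like the others, so for the 4 polluted pools against SOL only sizes of change are given. Of the 34 tested members, 18 lay above 0. The change was 1.46 for Ccnb2, -1.34 for Mcm5, -1.33 for Ccnd1 and -1.02 for Mcm2. It was -2.16 for Fanca, which entered the tests through SOL alone. For the 3 stream pools against SOL and PS the smallest adjusted p of a member was 0.35, with no gene passing (0%). That grouping of pools was chosen with earlier results of these data known, so its counts are a description. Of 34 members, 9 had an unadjusted p under 0.05, as did 10.3% of all genes. Among these 9 were Fanca, which entered through SOL alone, and Bub1, which entered through DR1 alone. Ccnb2 (1.31 ± 0.32) had the smallest unadjusted p, 0.00528. The array tests above therefore describe these 5 pools.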

How the data were processed

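Liver RNA pools of 9 male Mus spretus from 5 sites, labelled with Cy3, were measured on 19 one-colour Agilent arrays. Per the file headers, the deposited scanner files hold linear intensity per spot, background-subtracted by the scanner software, and flags of 0 or 1 (above background, saturated, outlier, control). Per the submitters' processing notes, the authors ran Feature Extraction, version 9.5.3.1. The whole-series table, deposited as linear intensity, matched the scanner files within 0.497%. Gene names came from the newer design file (mm8), matched by probe, since 5.84% of spots in the DR1 files carry another name.

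The log2 intensity minus each array's 75th percentile was used, without controls and outlier spots. Kept were the 23458 probes that reached well above background on 3 or more arrays of any site. Limma 3.58.1 in R 4.3.3 fitted a mean per site. Tests (two-sided) covered 10 site pairs, and the pools again as units. The code was tested on simulated data. The number of arrays limits the precision. All 40 members were named, and from other lists at most 3 called genes per direction and site, each measured on every array of the site where it was higher. The members, the lists and the grouping of stream pools against SOL and PS were chosen with earlier results of these data known. Alternatives covered scaling, background, filter, probes, outlier spots, fold limit, replicate block and each array left out. Promoter motifs were not analysed here.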

Additional observations from a re-analysis of the deposited data

Results flagged for a closer look

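In a group of 4 arrays, 1 array was singled out when its gap to the nearest other exceeded Dixon's critical share of the group's range. This met 16 of 165 groups, where chance gives about 1 in 20. Levels are log2 signal over the array's 75th percentile, and the causes were not tested.

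Among mitotic genes, SOL replicate 1 read -2.55 for Ccnb2 (others -1.58 to -1.45), -2.21 for Mki67 (others -1.87 to -1.80) and -2.44 for Nusap1 (others -4.08 to -4.02). SOL replicate 3 read -3.94 for Aurkb (others -4.35 to -4.31), none of them well above background. PS replicate 2 read -6.21 for Mlf1ip, also below background.

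Among genes of G1 and replication, DR1 replicate 2 read 0.81 for Ccne1 and 3.13 for Pcna, above its fellows, and DR1 replicate 1 read -6.01 for Cdc45l, at background. SOL replicate 1 read -5.31 for E2f1, SOL replicate 2 1.15 for Mcm6, and DR4 replicate 1 -0.81 for Mcm4. For nucleotide supply, SOL replicate 4 read 2.23 for Tyms, DR4 replicate 4 1.03 for Rrm1 and PS replicate 3 2.58 for Tk1. Fanca at SOL replicate 4 read -2.95, close to its fellows. DR4 replicate 2 had 61.5% of spots well above background, against 55.9% to 56.5% on its fellows.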

How the results depend on the processing

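Counts of members called are given in the order PS, DR1, DR4 and DR6 against SOL, then DR1, DR4 and DR6 against PS, DR1 and DR4 against DR6, and DR1 against DR4. They were 6, 16, 8, 7, 13, 2, 5, 7, 2 and 14. The deposited value table gave the same 10 counts, and the mean of all probes differed by 1 at DR4 against SOL. Normexp background with an offset of 50 gave 0, 3, 1, 1, 1, 1, 0, 0, 0 and 3, normexp with quantile scaling 0, 3, 2, 1, 1, 0, 0, 0, 0 and 3, and normexp with no offset, chosen after seeing the data, 1, 7, 4, 2, 2, 1, 0, 0, 1 and 4. Normexp with the adjusted p alone, also chosen then, gave 3, 6, 7, 3, 4, 2, 0, 4, 0 and 8. The scanner's own subtraction with the adjusted p alone gave 17, 27, 22, 22, 26, 17, 19, 21, 18 and 24. Median scaling gave 6, 16, 8, 8, 12, 3, 3, 8, 1 and 14, and quantile scaling 5, 16, 8, 7, 12, 2, 3, 8, 1 and 14. No filter gave 7, 17, 8, 7, 14, 4, 7, 8, 2 and 15, and a filter that counts arrays over all sites together 4, 11, 7, 4, 9, 1, 3, 6, 1 and 10, with fewer genes tested. Outlier spots kept, chosen after seeing the data, gave 6, 16, 8, 8, 13, 2, 6, 7, 3 and 13. Leaving out each array in turn gave 5 to 6, 16 to 17, 7 to 9, 6 to 7, 12 to 13, 2 to 5, 2 to 6, 4 to 9, 1 to 3 and 12 to 14. The pool tests called 0 members under every setting run. Over all tested genes, the main setting called 722, 994, 1722 and 1136 at PS, DR1, DR4 and DR6 against SOL. Normexp with an offset of 50 called 152, 256, 769 and 226, and the adjusted p alone 5364, 7796, 8982 and 7180. The counts over all genes thus moved with the setting as well. Except where the filter tested fewer genes, the cause was not tested.

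With the replicate block the counts were 6, 16, 8, 7, 13, 2, 4, 8, 1 and 14. The numbers equal slide positions. Deviations of same-numbered arrays correlated from -0.162 to 0.483 (16 of 36 pairs over 0.1), with a median of 0.088 against -0.034 for other numbers. Of 19 arrays, 11 were closest to their own number, and whether they share more than slide position was not tested. Of 135 single changes against SOL, 6 at PS, 16 at DR1, 8 at DR4 and 7 at DR6 were called. Of those calls, 30 were lost under normexp and 2 reversed there: Bub1 at DR1 (-0.000423) and Bub1b at DR1 (-0.103). For the 9 mitotic control genes called at DR1, the stricter filter left 5. Rrm2 at PS (-0.96 without PS replicate 4) lost its call, and Bub1 at DR4 gained one without DR4 replicate 1 (1.54) or 2 (1.49). Over all genes, the share of calls that were higher moved under normexp from 50.6% to 38.2% at PS, 58.0% to 68.8% at DR1 and 51.6% to 25.4% at DR4, and under median scaling from 67.2% to 55.8% at DR6. Median scaling put the median change of all genes at -0.18 for DR6 against PS, from -0.01. Promoter motifs were not run. Dim spots limit the size of a change, as bounds show.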
